A study of Mus musculus with 7 samples.

Results

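Nuclei with the transcripts that mark Cajal-Retzius cells were identified in single-nucleus RNA sequencing (snRNA-seq) of the posterolateral cortical amygdala (plCoA), a cortical olfactory area of the temporal lobe. They were chosen by 4 genes, namely Trp73 (the transcription factor p73), Ndnf (a secreted protein), Ebf3 (an EBF family transcription factor) and Lhx1 (a LIM homeodomain factor). A nucleus was taken if it had at least 1 unique molecular identifier (UMI, 1 counted RNA molecule) of Trp73, at least 4 UMIs over the 4 genes with at least 2 of them detected, and at most 1 UMI of Gad1 and Gad2, the enzymes of GABA synthesis. This gave 113 Trp73 nuclei among 51115 nuclei with at least 1000 genes and at most 30000 UMIs.

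Tissue came from male C57BL6J mice that were 8 weeks old, and the anterior (aplCoA) and the posterior (pplCoA) domains were microdissected separately. No genetic change or drug separated the groups, and each library held tissue pooled from several animals, so that a replicate stands for a pool and not for 1 mouse. The mice had been housed singly and deprived of sensory stimuli for the last 24 h, they were killed in the dark period, and nuclei were sorted by DRAQ7, a DNA dye that does not select a cell type. Each domain had 3 replicates, and the counts of the 2 libraries from aplCoA replicate 1 were added up, so that the 7 libraries had 50812605 to 129624583 UMIs and a median of 5515.5 to 7159.5 UMIs in a nucleus. Trp73 nuclei were set against 16169 glutamatergic nuclei, defined by at least 2 UMIs of the vesicular glutamate transporters Slc17a7 and Slc17a6, at most 1 UMI of Gad1 and Gad2, and no Trp73.

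Cajal-Retzius cells are early-born neurons of the outermost cortical layer that arise at the borders of the pallium, including the cortical hem and the septum. They secrete reelin, a large extracellular glycoprotein that binds the receptors Vldlr and Apoer2 (Lrp8) on radially migrating neurons and acts there through the adaptor Dab1. Many of them die after birth, while others persist in the adult cortex, most of all in the hippocampus. Trp73 marks those from the hem and septum and is required for them.

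All 6 replicates held Trp73 nuclei. The numbers were 55, 3 and 15 in aplCoA replicates 1, 2 and 3, and 21, 11 and 8 in pplCoA replicates 1, 2 and 3. Both libraries of aplCoA replicate 1 contributed, with 37 nuclei of 10906 in the first and 18 of 4941 in the second. As a percentage of nuclei, Trp73 nuclei made up 0.347% in aplCoA replicate 1 (95% exact Clopper-Pearson interval 0.262 to 0.452%), 0.0716% in replicate 2 (0.0148 to 0.209%) and 0.148% in replicate 3 (0.0827 to 0.244%). In pplCoA the share was 0.217% in replicate 1 (0.134 to 0.331%), 0.193% in replicate 2 (0.0966 to 0.346%) and 0.144% in replicate 3 (0.0623 to 0.284%). These intervals cover counting error only. The highest and the lowest share both belonged to aplCoA, and the domains overlapped.

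**Figure D1:**
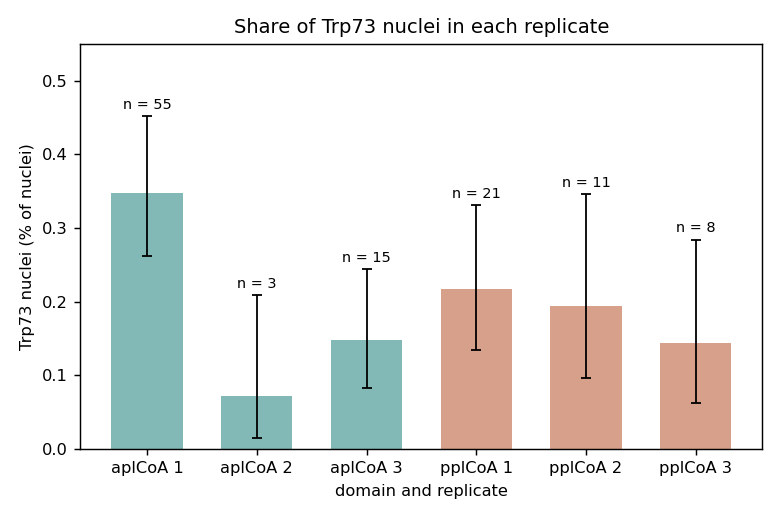
Trp73 nuclei as a percentage of all nuclei (y axis) in each replicate of aplCoA (teal) and pplCoA (orange), with 95% exact binomial intervals as error bars and the number of Trp73 nuclei above each. The pplCoA replicates lie between 0.144 and 0.217%, within the range of the aplCoA replicates, 0.0716 to 0.347%.

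For aplCoA the replicates averaged 0.189 ± 0.142% (SD, n = 3), and for pplCoA they averaged 0.185 ± 0.0369% (SD, n = 3). The difference of 0.00405 percentage points did not exceed the replicate spread (p = 0.9 in a two-sided exact permutation test, where 3 against 3 cannot go below 0.1). Its sign turned without aplCoA replicate 1, to -0.0751, and without pplCoA replicate 3, to -0.0162. The dissections differed in the meninges they carried, since nuclei with leptomeningeal markers made up 5.25, 9.64 and 9.13% of the aplCoA replicates and 2.58, 3.32 and 3.70% of the pplCoA replicates. Within aplCoA, the replicate with the highest share of Trp73 nuclei had the lowest leptomeningeal share, and the part of the dissection in the share of Trp73 nuclei was not tested.

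The genes of the rule are given as a description, since they chose the nuclei. Trp73 had a median of 2 UMIs in a Trp73 nucleus (range 1 to 10), and summed over the nuclei of a replicate it reached 546, 196, 688, 680, 665 and 641 CPM (UMIs of a gene scaled by all UMIs of those nuclei) in aplCoA 1, 2 and 3 and pplCoA 1, 2 and 3. Ndnf was found in 104 of the 113 nuclei, at 1132, 1226, 1315, 1422, 1445 and 1220 CPM, against 2.61 CPM in glutamatergic nuclei and 100.4 CPM in GABAergic nuclei, where it marks neurogliaform cells. Ebf3 was found in 86 nuclei, at 367 to 655 CPM, and Lhx1 in 51 nuclei, at 101 to 235 CPM in 5 replicates and at 0 in the 3 nuclei of aplCoA replicate 2. All 4 genes were detected in 37 nuclei, 3 of them in 54 and 2 in 22.

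Reln, which encodes reelin, was not part of the rule. It was found in 109 of the 113 Trp73 nuclei, with a median of 12 UMIs in a nucleus, and reached 2788, 1275 and 4209 CPM in aplCoA replicates 1, 2 and 3 and 4069, 2936 and 4260 CPM in pplCoA replicates 1, 2 and 3. In glutamatergic nuclei of the same replicates it stood at 103, 84.3, 158, 143, 146 and 171 CPM. The lowest Trp73 value lay above the highest glutamatergic value. Reln lies on the minus strand of chromosome 5 (21884454 to 22344705, GRCm38.p6). The 250 bases before its start in RefSeq, chr5:22344706-22344955 read on the minus strand, are shown because they hold 2 matches, in capitals, to CCCNNGGG, the palindromic core bound by EBF factors, of which Ebf3 is a rule gene:
upstream of Reln: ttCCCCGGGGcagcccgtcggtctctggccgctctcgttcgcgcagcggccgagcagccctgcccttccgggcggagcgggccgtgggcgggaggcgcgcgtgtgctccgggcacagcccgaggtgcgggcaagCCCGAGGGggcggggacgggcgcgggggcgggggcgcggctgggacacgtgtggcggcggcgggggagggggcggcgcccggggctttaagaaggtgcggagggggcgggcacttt

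The motif occurs in 3882 of 32851 windows of 250 bases before gene starts (11.8%), so a match is common. In all 19 genes were looked up, namely those of the rule, the most raised genes named below, and Reln, Lhx5 and Nhlh2. The other identity genes were not looked up. Of the 19, 12 had a window, and 4 of these held the motif (Ebf3, Lhx1os, Slc7a10 and Reln). TAATTA, the palindromic core bound by many homeodomain factors such as Lhx1, was in 1590 windows (4.84%) and in 0 of the 12. Both are letter matches in these windows and not measured binding.

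The edge of the rule can be described by genes outside it. The 9 nuclei just inside, with 4 or 5 UMIs over the 4 genes, had 1628 CPM of Reln and 570 CPM of Cacna2d2, a calcium channel subunit. The 5 nuclei just outside, with 3 UMIs and at least 1 of Trp73, had 1952 and 601 CPM. With 2 UMIs the 17 nuclei had 279 and 89.1 CPM, and with 1 UMI the 65 nuclei had 129 and 12.0 CPM, close to the glutamatergic values. Another 30 nuclei met the rule apart from having no Trp73 UMI, and these had 2482 CPM of Reln and 743 CPM of Cacna2d2. The rule therefore left out a number of nuclei with like levels of both genes.

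**Figure D2:**
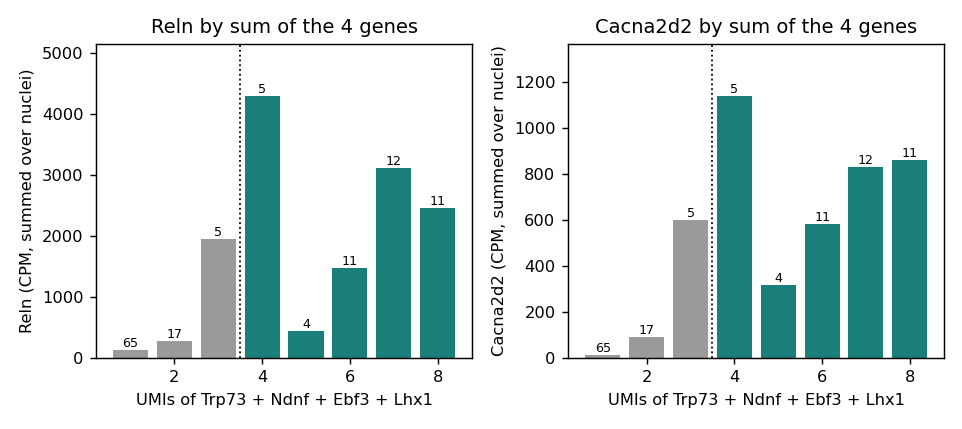
Reln (left) and Cacna2d2 (right) in CPM (y axes), summed over nuclei with at least 1 Trp73 UMI and at most 1 UMI of Gad1 and Gad2, by their UMIs of Trp73, Ndnf, Ebf3 and Lhx1 together (x axes, 1 to 8). Numbers above bars count nuclei, grey bars lie outside the rule and teal bars inside. In the plot, both genes are low at 1 and 2 UMIs, and the 4 nuclei with 5 UMIs lie below those with 4.

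Trp73 nuclei gave fewer UMIs than glutamatergic nuclei. Their median was 4356, 7068 and 2563 UMIs in aplCoA replicates 1, 2 and 3 and 3230, 2865 and 4287.5 UMIs in pplCoA replicates 1, 2 and 3, where glutamatergic nuclei had 12566.5 to 15532. The mean of these medians was 4062 ± 1646 UMIs against 13817 ± 1324 (SD, n = 6). It was lower in each replicate (p = 0.03125 in a two-sided exact permutation of the pairs, which can give no smaller p). At an equal 2000 UMIs, which 102 Trp73 nuclei reached, a Trp73 nucleus gave 1144 ± 27.9 genes and a glutamatergic nucleus 1105 ± 12.3 (SD, n = 6, higher in 5 of 6, p = 0.0625 in the same exact test). The lower number of genes in Trp73 nuclei before thinning, a median of 1810 against 4032, was thus not seen at equal depth.

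Trp73 nuclei lay near each other in a search without the 8 genes that defined the groups. The nearest neighbour of each nucleus was left out, and the next 15 were used. Of these, 82.2, 88.9 and 89.8% were Trp73 nuclei in aplCoA replicates 1, 2 and 3. In pplCoA replicates 1, 2 and 3 they were 86.0, 80.6 and 71.7%, and the mean was 83.2 ± 6.70% (SD, n = 6). Trp73 nuclei were 0.680% of the 16623 nuclei searched. The rest of this pool had at least 2 UMIs of Slc17a7 and Slc17a6, which 26 Trp73 nuclei also had. Median depth was 3651 UMIs in Trp73 nuclei and 13603 in the pool. The part of depth and of these transporters in the neighbour share was not tested. In 100 of the 113 nuclei at least 8 of 15 neighbours were Trp73 nuclei. The other 13 were deeper (median 10927 UMIs against 3431) and had less Reln (989 against 4090.4 CPM), and 6 of them had no such neighbour. No Trp73 barcode was kept in another library, while 315 barcodes of all nuclei were.

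Other cell types were checked by their markers. The defining vascular and leptomeningeal markers were nearly missing in Trp73 nuclei, with 6 of 8 at 0 (Cldn5, Flt1, Col1a1, Col1a2, Slc6a13 and Slc47a1) and a summed level of 0 to 7.38 CPM per replicate against 12.9 to 22.6 CPM in glutamatergic nuclei. The 5 astrocyte markers summed to 0 to 408 CPM against 26.1 to 45.7, but rested on 10 nuclei. The 6 microglia and macrophage markers summed to 49.0 to 252 CPM in 5 replicates, against 95.0 to 155 CPM, and to 1282 CPM in pplCoA replicate 3, where a single nucleus held 59 UMIs of them. The 7 neurogliaform and GABAergic markers were lower than in glutamatergic nuclei in every replicate, at 0 to 203 against 84.9 to 314 CPM, and the 6 oligodendrocyte markers stood at 61.8 to 121 against 82.1 to 107 CPM. In Trp73 nuclei, 9 had over 4 UMIs of the glial, immune and vascular markers together, and 3 had over 4 UMIs of the neurogliaform and GABAergic markers. Scrublet, a doublet caller, marked 28 Trp73 nuclei, of which 20 were among the 21 of pplCoA replicate 1. It marked 4210 of the 51115 nuclei and 1915 of the 16169 glutamatergic nuclei, with 14.8% of the glutamatergic nuclei in pplCoA replicate 1.

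Genes were compared between Trp73 and glutamatergic nuclei of the same replicate in the 5 replicates with at least 5 Trp73 nuclei, which leaves out aplCoA replicate 2. UMIs were summed per replicate and group and tested by edgeR's quasi-likelihood test with the replicate as a block. Of 9783 genes tested, 512 were higher (5.23%) and 1041 lower (10.6%) in Trp73 nuclei at an adjusted p (Benjamini-Hochberg) under 0.01 and a change of at least 1.5-fold, 15.9% in all. A gene was tested if at least 10% of the nuclei of either group had a UMI of it. Of the genes tested, 177 passed this detection floor through Trp73 nuclei alone, of which 143 were called higher and 0 lower, and 3443 through glutamatergic nuclei alone, of which 6 were called higher and 453 lower. A gene that passed through 1 group could hardly be called in the other direction, so the counts of each gene list are a description. The split depended on the scaling. With TMM factors 33.0% of the called genes were higher and the median log2 fold change over all genes was -0.12, whereas scaling by library size alone gave 857 higher and 699 lower genes (55.1% higher) and moved that median by 0.35. CPM values below are scaled by library size, fitted changes by TMM, and a fitted log2 fold change is to be read against the median of -0.12.

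Of 12 genes of Cajal-Retzius identity outside the rule, 8 passed the detection floor, and 7 of these were higher and 0 lower. The list was drawn up with earlier results of these data known, so this count is a description. Calb2, Lhx5 and Nhlh2 passed through Trp73 nuclei alone, and of the 5 that passed in both groups 4 were higher (Reln, Cacna2d2, Nr2f2 and Tbr1). Reln rose by a log2 fold change of 4.25 (SE 0.23, adjusted p = 1.72e-69). At 2000 UMIs, 92.5% of Trp73 nuclei had a Reln UMI, as against 16.8% of glutamatergic, 41.8% of GABAergic and 2.01% of microglial nuclei, the last of which serve as a measure of free RNA. Unthinned, 96.5% of Trp73 nuclei (median 3651 UMIs) had one, where glutamatergic nuclei had a median of 13594 and microglia of 3272 UMIs.

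Cacna2d2 encodes the α2δ2 subunit, which brings voltage-gated calcium channels to the membrane. Its level was 782, 736 and 931 CPM in aplCoA replicates 1, 2 and 3 and 1125, 826 and 889 CPM in pplCoA replicates 1, 2 and 3, whereas glutamatergic nuclei stood between 6.14 and 16.0 CPM. It rose by a log2 fold change of 5.95 (SE 0.25, adjusted p = 3.81e-125, 5 of 5 replicates) and was found in 105 of 113 Trp73 nuclei. At 2000 UMIs its share was 79.6% against 2.63% in glutamatergic and 0.786% in microglial nuclei.

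Lhx5 and Nhlh2, transcription factors of the identity list, were detected in few nuclei. Lhx5, a LIM homeodomain factor of the hem and its neurons, was at 44.3, 196, 40.5, 49.5 and 22.9 CPM in the first 5 replicates and at 0 in pplCoA replicate 3, and glutamatergic nuclei never passed 0.170 CPM. It rose by 7.74 (SE 0.75, adjusted p = 5.56e-23) on 23 UMIs in 21 nuclei. Nhlh2, a basic helix-loop-helix factor of young neurons, was at 55.3, 0, 60.7, 24.7, 45.9 and 62.0 CPM against at most 0.614 CPM, a log2 fold change of 6.91 (SE 0.64, adjusted p = 3.85e-25). Every replicate used in the fit was above glutamatergic nuclei for Nhlh2, and 4 of 5 were for Lhx5.

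Nr2f2 (COUP-TFII), an orphan nuclear receptor of the caudal and ventral pallium, was in 83 Trp73 nuclei. Its level was 446, 637, 506, 519, 229 and 289 CPM against 48.5 to 70.2 CPM, and it rose by 2.38 (SE 0.23, adjusted p = 9.15e-23). Tbr1, a T-box factor of early glutamatergic neurons, rose by 2.21 (SE 0.44, adjusted p = 5.96e-06), from 9.67 ± 2.25 to 70.7 ± 42.7 CPM (SD, n = 5). The range of both genes in Trp73 nuclei lay above that in glutamatergic nuclei.

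Calb2 (calretinin), a calcium-binding protein often used as a Cajal-Retzius marker, was found in 11 nuclei only. Its level was 118, 0, 0, 49.5, 0 and 41.4 CPM against 1.60 to 5.51 CPM, with a log2 fold change of 3.75 (SE 0.50, adjusted p = 2.74e-12) that 3 of 5 replicates showed. Car10, a carbonic anhydrase-related protein, was in 106 nuclei but had a log2 fold change of -0.47 (SE 0.21, adjusted p = 0.102), at 1819.99 ± 469 against 1856 ± 185 CPM. Cxcr4, the receptor of the meningeal chemokine Cxcl12, was in 5 nuclei, Zic1 in 9, Ebf1 in 5 and Ebf2 in 9, and these 4 did not pass the detection floor.

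The transmitter phenotype was described from the transporters of the glutamatergic definition, with no test. Slc17a6 (VGluT2) was found alone in 44 Trp73 nuclei, Slc17a7 (VGluT1) alone in 7, both in 8 and neither in 54. Slc17a6 stood at 167 CPM in Trp73 nuclei and 42.1 CPM in glutamatergic nuclei, and Slc17a7 at 40.9 and 254 CPM. At 2000 UMIs, 28.9% of Trp73 nuclei had an Slc17a6 UMI, 7.47% an Slc17a7 UMI, and microglia had 1.28 and 5.07%, so the Slc17a7 share was near the level of free RNA. Slc17a8 (VGluT3) had 0 UMIs, Gad1 was in 1 nucleus and Gad2 in 5.

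By the rule for named genes, the 12 most raised genes were Lhx1os, Ggt5, Emx2, Epb41l4a, Eln, Cacna2d2, Pik3c2g, Emx2os, Unc5b, Gpr149, Slc7a10 and Cobll1, with log2 fold changes from 4.97 to 11.20. Of these, only Cacna2d2 passed the detection floor in both groups, in 12.4% of glutamatergic nuclei. The others were in 0.0371% (Lhx1os) to 4.24% (Cobll1) of glutamatergic nuclei and passed through Trp73 nuclei alone. Their direction was thus nearly fixed, and their p-values are a description. The rule asked for the same direction in all 5 replicates, so the absence of overlap between the groups in the 12 genes, which 9.42% of all genes tested shared in this direction, is a description too. A further predicted gene would have ranked among them.

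Lhx1os is a long noncoding RNA read divergently from the start of Lhx1, so that it is not independent of the rule. It was at 84.8, 196, 142, 136, 68.8 and 62.0 CPM, whereas glutamatergic nuclei held at most 0.0601 CPM, and was called with a log2 fold change of 11.20 (SE 0.63, adjusted p = 5.07e-67). Emx2, a homeodomain factor of the medial pallium and hem, and Emx2os, its antisense partner, are likewise read in opposite directions from neighbouring starts. Emx2 was at 140, 245, 142, 223, 68.8 and 186 CPM against 0.168 to 1.11 CPM (log2 fold change 7.58, SE 0.43, adjusted p = 1.45e-64). Emx2os was at 148, 0, 121, 161, 45.9 and 103 CPM against 0.963 to 3.27 CPM (5.55, SE 0.41, adjusted p = 8.43e-39). Lhx1 chose the nuclei and has no test. The stretches between the starts in RefSeq (GRCm38.p6, plus strand) are shown because each pair shares it as upstream sequence, with no motif marked. The Lhx1 and Lhx1os starts enclose chr11:84525535-84525659, 125 bases, and the Emx2os and Emx2 starts enclose chr19:59458636-59458689, 54 bases:
between Lhx1 and Lhx1os: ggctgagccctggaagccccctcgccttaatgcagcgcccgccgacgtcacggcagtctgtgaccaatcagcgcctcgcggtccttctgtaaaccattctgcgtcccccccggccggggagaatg
between Emx2os and Emx2: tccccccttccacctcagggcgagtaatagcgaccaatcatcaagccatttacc

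Unc5b, a receptor of netrin, was at 195, 245, 121, 161, 91.7 and 103 CPM against 1.12 to 4.64 CPM (log2 fold change 5.47, SE 0.39, adjusted p = 1.40e-41). Eln, which encodes elastin, was at 107, 49.0, 101, 98.9, 138 and 62.0 CPM against 0.705 to 1.69 CPM (6.08, SE 0.46, adjusted p = 1.78e-37). Slc7a10, a transporter of serine and other small amino acids, was at 20.2 to 147 CPM against 0.870 to 2.64 CPM (5.03, SE 0.45, adjusted p = 1.32e-26). All 3 were well above the level in microglia, which was 1.85 CPM for Unc5b, 1.85 CPM for Eln and 6.42 CPM for Slc7a10.

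Gpr149, an orphan receptor, was at 88.5, 98.1, 142, 86.6, 45.9 and 207 CPM against 0.481 to 4.76 CPM (5.45, SE 0.43, adjusted p = 4.88e-35). Pik3c2g, a lipid kinase, was at 74.2 to 294 CPM against 1.34 to 2.21 CPM (5.72, SE 0.41, adjusted p = 5.19e-42). Epb41l4a, a membrane-cytoskeleton linker, was at 138 to 392 CPM against 1.51 to 3.07 CPM (6.51, SE 0.34, adjusted p = 1.91e-79), and Cobll1, an actin regulator, was at 49.0 to 227 CPM against 2.17 to 4.64 CPM (4.97, SE 0.36, adjusted p = 1.17e-40). Ggt5, a gamma-glutamyltransferase that converts leukotriene C4, was raised too (98.1 ± 25.5 against 0.339 ± 0.182 CPM, SD, n = 5). Microglia held 65.2 CPM of it, and its share at 2000 UMIs was 16.8% in Trp73 nuclei and 11.9% in microglia. Over all replicates, glutamatergic nuclei had 0.366 CPM and GABAergic nuclei 0.583 CPM, so microglia give no level of free RNA for this gene.

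The 8 most lowered genes were near or at 0 in Trp73 nuclei. They were chosen by the same rule, and 9.81% of all genes tested lay lower without overlap between the groups. All 8 passed the detection floor through glutamatergic nuclei alone, so their direction was nearly fixed and their calls are a description. Ccdc3, a secreted protein, Tll1, a metalloprotease, and Mmp17, a membrane metalloprotease, had 0 UMIs over all 113 nuclei, at 58.3 ± 9.08, 54.6 ± 12.8 and 24.8 ± 4.86 CPM in glutamatergic nuclei (SD, n = 5). Against a floor of 3 UMIs over the group they were at least 10.4-fold, 9.04-fold and 4.55-fold lower. Mmp17 was not called without aplCoA replicate 1 (adjusted p = 0.0118), nor Tll1 against the glutamatergic nuclei of like depth described below (adjusted p = 0.0514). Trabd2b, a Wnt-cleaving protease, had 1 UMI, a ratio to glutamatergic nuclei of 0.0153 (95% counting interval 0.000386 to 0.0850). The ratio was 0.0355 for Trhr (0.000899 to 0.198), the receptor of thyrotropin-releasing hormone, and 0.0328 for Chrm2 (0.000830 to 0.183), a muscarinic receptor. It was 0.0366 for Chst9, a sulfotransferase (0.00444 to 0.132), and 0.0403 for Disp3, a sterol-sensing protein (0.00102 to 0.225). A further 8 predicted genes ranked among them.

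**Figure D3:**
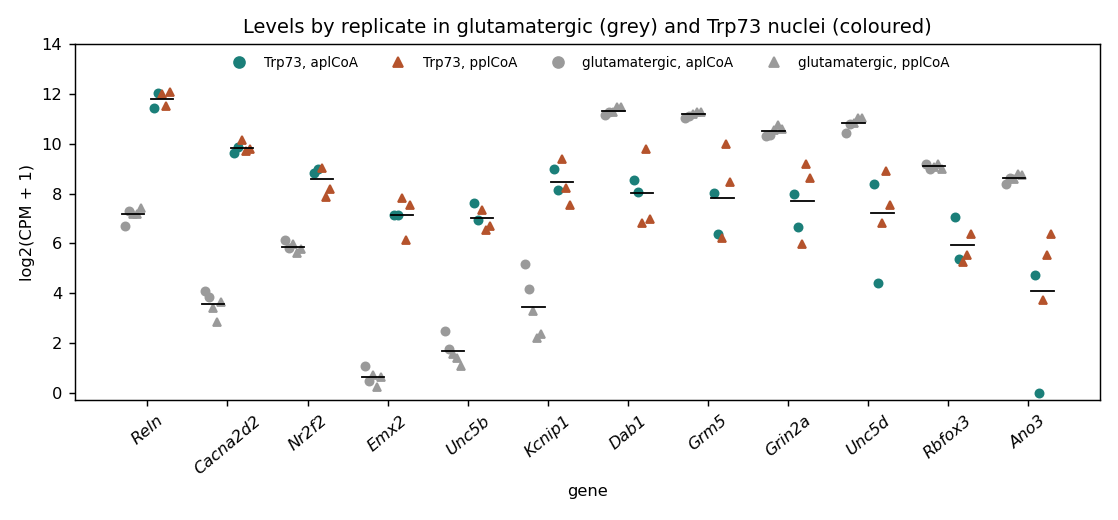
Level of 12 genes as log2(CPM + 1) (y axis) in the 5 replicates of the paired fit, with glutamatergic nuclei in grey and Trp73 nuclei in teal (aplCoA) or orange (pplCoA), circles for aplCoA and triangles for pplCoA, and means as bars. The first 6 genes, from Reln to Kcnip1, lie higher in all Trp73 points and the last 6, from Dab1 to Ano3, lie lower.

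Of the 12 other genes of the reelin pathway list that could be tested, 1 was called, beside 15.9% of all genes. This was Dab1, the adaptor, which was at 376, 196, 263, 111, 894 and 124 CPM in Trp73 nuclei and at 2249.96 to 2859.55 CPM in glutamatergic nuclei. It fell by 3.48 on the log2 scale (SE 0.25, adjusted p = 2.91e-40, 5 of 5 replicates), with a share at 2000 UMIs of 20.8% against 95.3%, and 12.7% in microglia. The receptor Vldlr, on 4 UMIs, had a log2 fold change of -2.09 (SE 0.68, adjusted p = 0.0129), and Lrp8 (Apoer2) one of 0.06 (SE 0.35, adjusted p = 0.941). The median of the 13 genes was -0.05 with TMM (-0.12 over all genes) and 0.35 with library size scaling (0.23 over all genes).

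The p53 family and its targets, listed because Trp73 is a member, gave 0 called genes of 8 tested, beside 15.9% of all genes, with a median of 0.26. Trp53 was at 13.6 ± 8.40 CPM against 9.59 ± 1.11 (SD, n = 5, log2 fold change 0.13, SE 0.66, adjusted p = 0.933) on 7 UMIs. Mdm4, an inhibitor of p53, had a log2 fold change of 0.64 (SE 0.26, adjusted p = 0.0544). Of the other 9 genes of the list, Cdkn1a, Bbc3 and Perp among them, none passed the detection floor in either group, so they were not tested.

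Transcription factors of projection neurons split in both directions, with 8 of 26 higher and 8 lower. The median was -0.24 with TMM and 0.12 with library size scaling, beside the same medians over all genes of -0.12 and 0.23. Of the 26 genes, 9 passed the detection floor through glutamatergic nuclei alone, with 3 of the 8 lower genes among them. Emx2 passed it through Trp73 nuclei alone. Besides Emx2 and Tbr1, the higher genes were Bcl11a (3.60), Nfix (2.59), Nfia (2.43), Tle4 (2.05), Lhx2 (1.52) and Nfib (0.89). Lhx2 was not called without aplCoA replicates 1 (adjusted p = 0.0381) or 3 (0.0312), or pplCoA replicates 1 (0.124) or 2 (0.0234), nor Nfib without aplCoA replicate 1 (0.0346) or pplCoA replicate 1 (0.0124). Bcl11a, a zinc-finger factor of early cortical neurons, was at 712 ± 154 CPM against 48.2 ± 27.7 (SD, n = 5, SE of the log2 fold change 0.23, adjusted p = 3.29e-53). The nuclear factor I gene Nfia was at 901 ± 176 against 123 ± 10.4 CPM (SE 0.22, adjusted p = 1.14e-26), but was not called at like depth (1.01, 0.0473). Like depth means glutamatergic nuclei within the middle range of depth of the Trp73 nuclei of their replicate, for example 3228 to 5532.5 UMIs in aplCoA replicate 1. Among the lower genes were Lmo3 (-3.41), Bcl11b (-2.42), Zfpm2 (-2.37), Mef2c (-2.13), Tshz3 (-1.84) and Lmo4 (-1.51). Tshz3 was not called without aplCoA replicate 1 (0.0135), nor Lmo4 without aplCoA replicate 1 (0.0372), aplCoA replicate 3 (0.0603) or pplCoA replicate 1 (0.0976). Neurod2, a factor of cortical excitatory neurons, had 1 UMI, with a ratio of 0.0867 (0.00219 to 0.483) to glutamatergic nuclei, and was not called without aplCoA replicate 1 (0.114) or pplCoA replicate 1 (0.0134).

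Among factors of the hem, septum and pallial patterning, 5 of 11 were higher and 3 lower. Of the 5, Lhx5, Lhx9, Dmrta2 and Pax6 passed the detection floor through Trp73 nuclei alone. Of the 3 lower genes, 2 passed it through glutamatergic nuclei alone. Dmrta2, a DM-domain factor needed for the hem, was at 29.5, 49.0, 101, 24.7, 22.9 and 41.4 CPM against 0.401 to 0.521 CPM (log2 fold change 6.06, SE 0.66, adjusted p = 4.47e-18). Pax6, a paired-homeodomain factor, was at 34.3 ± 20.4 against 1.57 ± 0.242 CPM (SD, n = 5, 4.01, SE 0.60, adjusted p = 8.06e-10), and Lhx9 rose by 2.50 (SE 0.54, adjusted p = 3.98e-05), though it was not called without aplCoA replicate 1 (0.0455), at like depth (0.0117) or against glutamatergic nuclei with more Slc17a6 than Slc17a7 (0.60, 0.526). Pax6 was not called at like depth (1.86, 0.101). Among the lower genes were the TALE homeodomain genes Meis2 (-3.32) and Meis1 (-1.91), the last of which was not called without aplCoA replicate 1 (0.436) or aplCoA replicate 3 (0.0365). Meis2 was at 21.9 ± 31.6 against 185 ± 52.1 CPM (SD, n = 5, SE 0.38, adjusted p = 4.86e-17). The other 19 genes of the list, with Lmx1a, Otx2 and Zic1 to Zic5, did not pass the detection floor.

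**Figure D4:**
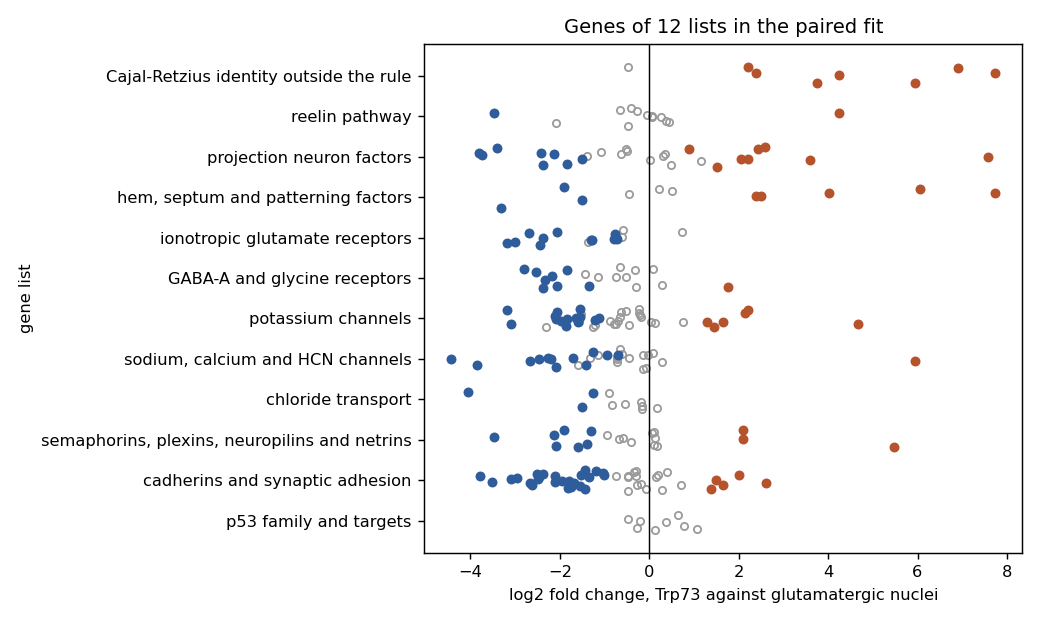
Log2 fold change of Trp73 against glutamatergic nuclei (x axis) for the genes tested in 12 lists (y axis), each point 1 gene with vertical scatter for display, red for called higher, blue for called lower and open grey for not called. Genes with 0 UMIs in Trp73 nuclei are left out, 7 of 8 identity genes lie to the right, and receptor, channel and adhesion genes mostly to the left.

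Of 16 ionotropic glutamate receptor genes, 12 were lower, 0 higher and 4 not called, with a median of -1.33. Grin2a, a subunit of NMDA receptors, was at 251, 0, 101, 61.8, 573 and 393 CPM against 1256 to 1710.2 CPM (log2 fold change -2.99, SE 0.25, adjusted p = 5.18e-30). Gria3, a subunit of AMPA receptors, was at 210 ± 211 against 1081 ± 116 CPM (SD, n = 5, -3.18, SE 0.29, adjusted p = 3.66e-17). Its call was lost without the 9 nuclei with other markers (-3.30, 0.0164) and with only library 2 of aplCoA replicate 1 (-3.39, 0.0212). At 2000 UMIs the shares of Grin2a and Gria3 in Trp73 nuclei, 10.3 and 9.79%, were close to those in microglia, 7.80 and 9.24%, and are read as near background. Grik3, a kainate receptor subunit, had 0 UMIs and was at least 5.12-fold lower. Gria1 had a log2 fold change of -0.73 (adjusted p = 0.00517), which was not called without aplCoA replicates 1 (0.0412) or 3 (0.0214), or pplCoA replicates 1 (0.0218) or 3 (0.0173) and turned to 0.36 (0.704) against glutamatergic nuclei of like depth. Gria2, at 1229.9 ± 167 against 1389 ± 63.3 CPM (SD, n = 5), had a log2 fold change of -0.59 (SE 0.21, adjusted p = 0.0301), which was not called.

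Of 5 metabotropic glutamate receptors, 3 were lower, Grm5 and Grm7 among them, and 1 was higher. Grm5 was at 262, 637, 80.9, 74.2, 1009 and 352 CPM against 2115 to 2461 CPM (-3.47, SE 0.26, adjusted p = 1.75e-32), and Grm7 at 398 ± 221 against 2415.5 ± 205 CPM (SD, n = 5, -3.06, SE 0.24, adjusted p = 4.66e-34). Grm8, a presynaptic receptor, was higher (1.33, SE 0.23, adjusted p = 1.29e-07) but was found in 37 nuclei and ranged from 165 to 3089 CPM. With at least 8 UMIs of the rule genes asked for, Grm8 turned to -0.08.

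Among 18 genes of GABA-A, GABA-B and glycine receptors and their scaffold, 8 were lower and 1 higher. Of the 18, 5 passed the detection floor through glutamatergic nuclei alone, with 3 of the 8 lower genes among them. Gabra2 was at 174 ± 113 against 873 ± 133 CPM (SD, n = 5, -2.80, SE 0.26, adjusted p = 5.05e-25), Gabbr2, a GABA-B subunit, at 121 ± 49.0 against 488 ± 36.9 CPM (-2.37, SE 0.27, adjusted p = 4.88e-17) and Glra3, a glycine receptor subunit, at 10.8 ± 15.4 against 80.1 ± 14.3 CPM (-2.53, SE 0.44, adjusted p = 1.55e-07). Gabrg3, the γ3 subunit, rose to 1598 ± 395 from 363 ± 120 CPM (1.76, SE 0.22, adjusted p = 3.49e-14), but was not called against glutamatergic nuclei with more Slc17a6 than Slc17a7 (0.74, 0.0183). Receptors of monoamines and acetylcholine gave 5 lower and 0 higher genes of 10, namely Htr2c, Htr4, Chrm1, Chrm2 and Chrm3. Of the 10, 8 passed the detection floor through glutamatergic nuclei alone, with 4 of the 5 lower genes among them. The direction was thus nearly fixed for these 8. Htr4, a serotonin receptor, was at 14.5 ± 30.4 against 61.6 ± 21.1 CPM (SD, n = 5, -2.99, SE 0.57, adjusted p = 2.54e-06) and Chrm1, a muscarinic receptor, at 6.80 ± 10.2 against 27.0 ± 2.45 CPM (-2.18, SE 0.68, adjusted p = 0.00879). Htr2c was not called without aplCoA replicate 1 (0.230), nor Chrm1 without aplCoA replicates 1 (0.0708) or 3 (0.0282), or pplCoA replicates 1 (0.0541) or 3 (0.0169).

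Chloride transport was examined because the balance of the importer Slc12a2 (NKCC1) and the exporter Slc12a5 (KCC2) sets how neurons respond to GABA. Slc12a5 was at 62.7, 49.0, 20.2, 74.2, 0 and 20.7 CPM against 70.2 to 97.2 CPM and was lower (-1.26, SE 0.35, adjusted p = 0.00226). This call was lost by DESeq2 (0.0419), with library size scaling (0.0401), at like depth (0.146) and without aplCoA replicate 3 (0.0170) or pplCoA replicate 2 (0.0134). Slc12a2 was at 18.4, 0, 20.2, 24.7, 0 and 62.0 CPM against 29.1 to 40.6 CPM and was not called (-0.91, SE 0.50, adjusted p = 0.202), on 11 UMIs. The groups overlapped for both transporters. Ano3, a scramblase of the anoctamin family, was at 33.4 ± 32.4 against 395 ± 43.2 CPM (SD, n = 5, -4.05, SE 0.34, adjusted p = 1.04e-29) and Ano4 fell by 1.51 on the log2 scale (SE 0.29, adjusted p = 3.15e-06), which was not called at like depth (-0.92, adjusted p = 0.156). Slc12a9, Clcn2, Clcn3, Ttyh1 and Ano6 had log2 fold changes between -0.82 and 0.18 and were not called.

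Of the handling of transmitter, 3 of 9 genes were higher and 2 lower. Slc1a3, a glial glutamate transporter, was called higher (1.83, SE 0.32, adjusted p = 2.61e-07), but it was in 9 nuclei, at 0 in 2 replicates. It fell to -2.83 without the 9 nuclei with other markers, a fall fixed in part, since Slc1a3 was among those markers. Slc1a1, a neuronal glutamate transporter, was at 34.2 ± 18.8 against 73.2 ± 3.10 CPM and lower (SD, n = 5, -1.54, SE 0.39, adjusted p = 7.23e-04), a call lost without aplCoA replicate 1 (0.0201) or pplCoA replicate 1 (0.0140). That for Slc1a3 was lost without pplCoA replicate 1 (0.0169).

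Of 40 potassium channel genes, 14 were lower, 6 were higher and 20 were not called. Kcnip1, which modulates A-type channels, was at 509, 441, 283, 668, 298 and 186 CPM against 3.59 to 35.3 CPM (4.67, SE 0.27, adjusted p = 2.84e-57). The groups did not overlap for Kcnip1. Kcnb2, of the delayed rectifier channels, reached 4920.4 ± 884 CPM from 792 ± 77.4 (SD, n = 5, 2.21, SE 0.21, adjusted p = 9.03e-23), Kcnc2, of the fast Kv3 channels, 1079.9 ± 225 CPM from 181 ± 20.6 (2.15, SE 0.22, adjusted p = 6.27e-21), and Kcnh7, of the ERG channels, 4368 ± 884 CPM from 1031 ± 73.2 (1.65, SE 0.21, adjusted p = 2.59e-13). Kcnk2 (1.45) and Kcna6 (1.30) were also higher, though Kcnk2 was not called at like depth (0.47, 0.583) and Kcna6 was not called without aplCoA replicates 1 (0.0181) or 3 (0.0135), or pplCoA replicates 1 (0.112) or 2 (0.0687). Kcnma1, the large-conductance calcium-activated channel, was lower (-1.97, SE 0.23, adjusted p = 2.91e-16), and Kcna1 and Kcnh3 had 3 and 2 UMIs, with ratios of 0.132 (0.0272 to 0.385) and 0.146 (0.0177 to 0.527). Kcnh3 was not called without pplCoA replicate 1 (0.0123).

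Of 28 sodium, calcium and HCN channel genes, 12 were lower and only Cacna2d2 higher. The sodium channel genes Scn1a (-2.20), Scn8a (-1.40) and Scn2a (-1.25) were lower, the last 2 of which were not called against glutamatergic nuclei of like depth (-0.39, adjusted p = 0.722, and -0.42, 0.655). Cacng3, an auxiliary subunit of AMPA receptors, was at 33.9 ± 58.6 against 248 ± 31.5 CPM (SD, n = 5, -3.85, SE 0.38, adjusted p = 2.11e-22), and Cacna1i, a T-type calcium channel, had 2 UMIs, with a ratio of 0.112 (0.0135 to 0.404). Among 6 TRPC channels 1 was called, beside 15.9% of all genes. This was Trpc6, on 3 UMIs and a ratio of 0.167 (0.0344 to 0.487). Without aplCoA replicate 1 neither Cacna1i (adjusted p = 0.0220) nor Trpc6 (0.0128) was called.

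Guidance and adhesion genes changed in both directions. Among 15 genes of chemokine signalling, Slit and ephrin guidance and attachment to the meninges, 4 were higher and 7 lower. Of the 15, 4 passed the detection floor through glutamatergic nuclei alone, with 3 of the lower genes and 1 of the higher genes among them. Robo2, a Slit receptor, was at 2696 ± 578 against 462 ± 40.5 CPM (SD, n = 5, 2.11, SE 0.22, adjusted p = 1.64e-20) and Epha3, an ephrin receptor, at 705 ± 181 against 115 ± 33.5 CPM (2.22, SE 0.22, adjusted p = 9.37e-22). The Slit ligands were lower, with Slit3 at 336 ± 208 against 1402 ± 170 CPM (-2.63, SE 0.24, adjusted p = 7.40e-25) and Slit2 at 12.96 ± 16.9 against 59.3 ± 21.9 CPM (-2.83, SE 0.53, adjusted p = 1.35e-06). Epha4 was lower (-3.05, SE 0.40, adjusted p = 4.62e-13), and Itga6 and the ephrin ligand Efnb2 were higher. Without single replicates some of these calls were lost, for Slit2 without aplCoA replicate 1 (adjusted p = 0.0120), for Efnb2 without aplCoA replicate 3 (0.0275), pplCoA replicate 1 (0.0192) or pplCoA replicate 3 (0.0121), and for Itga6 without pplCoA replicate 1 (0.0141), 2 (0.0104) or 3 (0.143). Itga6 turned negative without the 9 nuclei with other markers.

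Among 19 semaphorin, plexin, neuropilin and netrin genes, 3 were higher (Unc5b, Sema6a and Ntng2) and 7 lower. The UNC5 receptors moved in opposite directions, since Unc5d was at 336, 785, 20.2, 111, 482 and 186 CPM against 1357 to 2086 CPM (-3.46, SE 0.26, adjusted p = 5.49e-35) while Unc5b rose. Of 45 cadherin and synaptic adhesion genes, 25 were lower and 5 higher, with a median of -1.20. Cntnap5a was at 246 ± 266 against 1945 ± 63.4 CPM (SD, n = 5, -3.79, SE 0.27, adjusted p = 5.49e-35) and Tenm2, a teneurin, at 265 ± 299 against 1679.8 ± 211 CPM (-3.52, SE 0.26, adjusted p = 1.45e-36). The cadherins Cdh6 (2.61), Cdh4 (1.37) and Cdh7 and the contactin-associated genes Cntnap4 (2.02) and Cntnap2 (1.66) were higher. Against glutamatergic nuclei with more Slc17a6 than Slc17a7, Cdh6 turned to -0.18 (adjusted p = 0.758) and Cntnap4 to -0.15 (0.828).

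Of 14 neuropeptides and their receptors, 5 were lower and 0 higher, beside 10.6% and 5.23% of all genes. Of the 14, 11 passed the detection floor through glutamatergic nuclei alone, with 4 of the 5 lower genes among them. The direction was thus nearly fixed for these 11. Vipr1, Npy1r and Trhr, receptors of vasoactive intestinal peptide, neuropeptide Y and thyrotropin-releasing hormone, were nearly missing, with 0 UMIs of Vipr1 (at least 2.45-fold lower) and of Npy1r (at least 2.03-fold lower). Vipr1 was not called without aplCoA replicate 1 (0.0714) or pplCoA replicate 1 (0.0117), and Npy1r was not called without any 1 of the 5 replicates (adjusted p from 0.0116 to 0.132). The list's median was -2.39, and -1.16 with genes at 0 set to their bound. Of 16 trophic and morphogen genes, 6 were lower and 1 higher. Ntrk3, the receptor of neurotrophin-3, was at 95.4 ± 82.4 against 636 ± 119 CPM (SD, n = 5, -3.23, SE 0.28, adjusted p = 8.19e-28), and its ligand Ntf3 had 2 UMIs, with a ratio of 0.0961 (0.0116 to 0.347). Bmp6, a bone morphogenetic protein, rose by 3.11 (SE 0.44, adjusted p = 4.24e-11) in 4 of 5 replicates and turned to -0.14 against glutamatergic nuclei of like depth. In the fit against all glutamatergic nuclei, Bmp6 passed the detection floor through Trp73 nuclei alone and Ntf3 through glutamatergic nuclei alone. The direction of both was thus nearly fixed there.

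Of 17 pan-neuronal genes, 6 were lower (Rbfox3, Snap25, Syt1, Syn2, Dlgap1 and Camk2a), 2 were higher (Tubb3 and Elavl4) and 9 were not called. At like depth Snap25 (-0.38), Syt1 (-0.26) and Syn2 (-0.07) were not called. Rbfox3, which encodes the neuronal antigen NeuN, was at 133, 0, 40.5, 37.1, 45.9 and 82.7 CPM against 507 to 588 CPM (-3.21, SE 0.29, adjusted p = 2.82e-26). It was found in 19 of 113 nuclei, and its share at 2000 UMIs was 10.2% against 64.0% in glutamatergic and 3.41% in microglial nuclei. Tubb3, a neuronal tubulin, was at 97.0 ± 59.4 against 31.7 ± 9.61 CPM (SD, n = 5, 1.21, SE 0.33, adjusted p = 0.00233), a call lost by DESeq2 (0.0168) and without aplCoA replicate 1 (0.0820), aplCoA replicate 3 (0.0474) or pplCoA replicate 1 (0.0135). Elavl4 was not called without any 1 of the 5 replicates (adjusted p from 0.0118 to 0.0990) nor by DESeq2 (0.0107), and neither gene was called with Scrublet doublets removed (0.0657 and 0.409). Among 12 calcium-binding proteins, Calb2 was higher and 5 were lower, with Ncald (-2.67, SE 0.29, adjusted p = 8.65e-19) and Calb1 (-2.46, SE 0.58, adjusted p = 2.36e-04) among them. Calb2 passed the detection floor through Trp73 nuclei alone, and 3 of the 5 lower genes passed through glutamatergic nuclei alone. Of the 6 that passed in both groups, 2 were lower and 0 higher. Of 4 activity-linked genes tested 1 was called, Homer1 (-2.44, SE 0.33, adjusted p = 5.51e-12), beside 15.9% of all genes.

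Marker lists of other cells held few genes that passed the detection floor. Of 8 GABAergic markers, Kit, a receptor tyrosine kinase, was higher at 66.6 ± 32.1 against 3.07 ± 2.24 CPM (SD, n = 5, 3.99, SE 0.47, adjusted p = 1.11e-15), and Adarb2 was lower (-2.09, SE 0.33, adjusted p = 6.48e-09). Sv2c, a synaptic vesicle protein, had 0 UMIs and was at least 5.35-fold lower. Slc1a3 was the called gene of 2 astrocyte markers, and Vcan (1.81, SE 0.55, adjusted p = 0.00625) was higher and Mbp (-2.71, SE 0.52, adjusted p = 2.15e-06) lower among 3 oligodendrocyte lineage markers. Kit and Vcan passed the detection floor through Trp73 nuclei alone, and Sv2c and Mbp through glutamatergic nuclei alone. The direction of these genes was thus nearly fixed. None of 12 vascular and leptomeningeal genes could be tested, and Enpp2, with 1 UMI and a ratio of 0.0850 (0.00215 to 0.474), was the gene tested of 6 ependymal and choroid markers. The call for Vcan was lost by DESeq2 (0.0996), at like depth (log2 fold change 0.18) and without aplCoA replicate 1 (0.559), pplCoA replicate 2 (0.0287) or pplCoA replicate 3 (0.0107). Vcan was not tested without the 9 nuclei with other markers, and it was itself among those markers. The call for Enpp2 was lost without aplCoA replicate 1 (0.153).

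Fewer genes were called against glutamatergic nuclei of like depth, a set that was also much smaller and differed in marker genes of other cells. Against it the median of the astrocyte list (2 genes) moved from 0.90 to -0.83. Those of the oligodendrocyte lineage and the microglia and macrophage lists moved from 0.39 to -2.25 and from 0.68 to -0.56. Depth, the number of nuclei and RNA of other cells cannot be told apart here. The nuclei of like depth lay within the middle range of depth of the Trp73 nuclei and numbered 177, 23, 29, 5 and 285 in the 5 replicates. Of 7648 genes tested, 191 were higher (2.5%) and 283 lower (3.7%), 6.2% in all. Of the called genes of the lists and the naming rule, 195 could be tested, of which 95 kept their call, 92 lost it and 8 reversed. Lower were 6 of 16 ionotropic glutamate receptor genes, 3 of 18 GABA and glycine receptor genes, 5 of 25 sodium, calcium and HCN channel genes, 1 of 38 potassium channel genes and 10 of 45 adhesion genes. The medians of these 5 lists moved from -1.33 to -1.15, from -1.25 to -0.79, from -0.84 to -0.32, from -0.83 to -0.15 and from -1.20 to -0.79, beside -0.12 and -0.03 over all genes. Higher were 6 of 8 identity genes and 5 potassium channel genes, 4 of which were also among the 6 called higher against all glutamatergic nuclei. Without aplCoA replicate 1, which held 55 of the Trp73 nuclei, 298 genes were higher and 725 lower against all glutamatergic nuclei.

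Among genes described above, those that lost their call at like depth with a change over 1.5-fold smaller included Kit (1.70), Neurod2 (-2.93), Bcl11b (-1.59), Tshz3 (-1.14), Slc1a1 (-0.90), Htr4 (-2.30), Chrm3 (-0.77), Kcnma1 (-0.96), Cacna1i (-3.69), Ntf3 (-2.56) and Homer1 (-1.37), given with their log2 fold changes there. Tbr1, Lhx2, Lmo4, Glra3, Htr2c, Chrm1, Kcna1, Kcna6, Kcnh3, Trpc6, Calb1 and Tubb3 lost their call with a change within 1.5-fold. A further comparison used glutamatergic nuclei with more Slc17a6 than Slc17a7, where 382 of 9502 genes were higher (4.02%) and 836 lower (8.8%), 12.8% in all. There 162 of 190 called genes of the lists and the naming rule kept their call, 26 lost it and 2 reversed. Among those that lost it were Grm8 (0.33), Elavl4 (0.26) and Syn2 (-0.44), and Lhx2, Gria1, Chrm1, Kcna6, Trpc6, Npy1r, Calb1 and Enpp2 were not called either.

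Domains were compared within Trp73 nuclei where at least 10 were present, which left aplCoA replicates 1 and 3 and pplCoA replicates 1 and 2. With 1 of these 4 left out, a domain has 1 sample, which is then assumed to vary like the other domain. Of 7121 genes tested by edgeR's quasi-likelihood test, 3 were called (0.0421%), 2 of them higher (0.0281%) and 1 lower (0.014%) in aplCoA. Pbx3, a TALE homeodomain gene, was at 199, 147 and 688 CPM in aplCoA and 0, 22.9 and 82.7 CPM in pplCoA (log2 fold change 5.36, SE 0.82, adjusted p = 4.71e-07). The 688 CPM were 34 UMIs in 3 nuclei, and the call for Pbx3 was lost with aplCoA replicate 3 (adjusted p = 0.170) or pplCoA replicate 1 (0.0212) left out. In glutamatergic nuclei it was at 150, 159 and 164 CPM in aplCoA and 49.4, 28.1 and 21.0 CPM in pplCoA. Every aplCoA value lay above every pplCoA value in either group of nuclei, and the difference of the 2 domain effects was not called (1.45, SE 0.73, adjusted p = 1.00). Over all replicates, the share with a Pbx3 UMI at 2000 UMIs was 12.0% in Trp73, 12.3% in glutamatergic and 29.5% in microglial nuclei.

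Sgcd, a sarcoglycan, was at 313, 441 and 809 CPM in aplCoA and 24.7, 206 and 310 CPM in pplCoA (2.38, SE 0.51, adjusted p = 0.00688). In glutamatergic nuclei it was at 733, 695 and 775 CPM in aplCoA and 629, 638 and 673 CPM in pplCoA. Over all replicates, the share with an Sgcd UMI at 2000 UMIs was 16.9% in Trp73 and 5.99% in microglial nuclei. The difference of the domain effects was not called (1.58, SE 0.52, adjusted p = 0.865). The highest value, 809 CPM, was 40 UMIs in 2 nuclei, and the call for Sgcd was lost with aplCoA replicate 3 left out (1.72, adjusted p = 0.995), with pplCoA replicate 1 left out (1.25, 0.733) and by the likelihood ratio test (adjusted p = 0.0937). Pigk, an enzyme that attaches membrane anchors, was at 44.3, 49.0 and 60.7 CPM against 186, 459 and 41.4 CPM (-2.65, SE 0.55, adjusted p = 0.00607), and overlapped once pplCoA replicate 3, which the fit did not use, was included. In glutamatergic nuclei it was at 363, 362 and 447 CPM in aplCoA and 573, 731 and 682 CPM in pplCoA. Over all replicates, 9.04% of Trp73 nuclei had a Pigk UMI at 2000 UMIs, below the 18.4% of microglia, the measure of free RNA. The difference of the domain effects was not called (-1.17, SE 0.61). Leaving out the Trp73 nuclei with other markers gave Pigk a log2 fold change of -0.72, with only pplCoA replicate 1 left of its domain. Its 459 CPM were 20 UMIs in 2 nuclei, and its call was lost without aplCoA replicate 1 (adjusted p = 0.600), aplCoA replicate 3 (0.313) or pplCoA replicate 2 (0.582). DESeq2 called 0 genes, as did the quasi-likelihood test with a minimum of 10 summed UMIs in place of the detection floor. An unadjusted p under 0.05 was reached by 453 genes (30 with DESeq2). These numbers were not set against those that this threshold passes with no effect, and are a description. Without aplCoA replicate 3 the counts were 0 higher and 0 lower, and without pplCoA replicate 1 they were 2 and 17. Reln had a log2 fold change of -0.06 between domains (SE 0.32, adjusted p = 0.990) and Cacna2d2 one of -0.25 (SE 0.36, adjusted p = 0.975).

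The difference between Trp73 and glutamatergic nuclei was also compared between domains, in the 5 replicates of the paired fit. With an aplCoA replicate left out, that domain has 1 replicate, which is then assumed to vary like those of pplCoA. Of 9783 genes, 2 were called (0.0204%), both with a smaller value in aplCoA, and 4 (0.0409%) had an adjusted p under 0.05. Nxph1, a neurexin ligand, was at 70.1, 0 and 0 CPM in Trp73 nuclei of aplCoA and 86.6, 161 and 434 CPM in those of pplCoA, while glutamatergic nuclei had 133, 169 and 178 CPM and 70.6, 36.9 and 28.3 CPM. The values were lower in aplCoA in Trp73 nuclei and higher in aplCoA in glutamatergic nuclei, with a difference of the log2 fold changes of -3.52 (SE 0.60, adjusted p = 1.19e-04). Over all replicates, Nxph1 was at 105 CPM in Trp73, 112 CPM in microglial and 1968 CPM in GABAergic nuclei. Its shares at 2000 UMIs were 12.8, 4.91 and 68.1%. The 434 CPM of Nxph1 were 21 UMIs in 2 nuclei, and within Trp73 nuclei the domains were not called different (-1.10, adjusted p = 0.853). The call of the difference was lost with aplCoA replicate 3 (adjusted p = 0.105), pplCoA replicate 2 (0.0294) or pplCoA replicate 3 (-2.30, 0.781) left out, and by DESeq2 (1.00). For Kcnip1 the difference was -2.06 (SE 0.47, adjusted p = 0.0328, and 0.173 to 0.927 without aplCoA replicate 1 or 3 or pplCoA replicate 1 or 2), where its glutamatergic level was 13.8 to 35.3 CPM in aplCoA and 3.59 to 8.70 CPM in pplCoA and its level in Trp73 nuclei did not separate the domains.

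**Figure D5:**
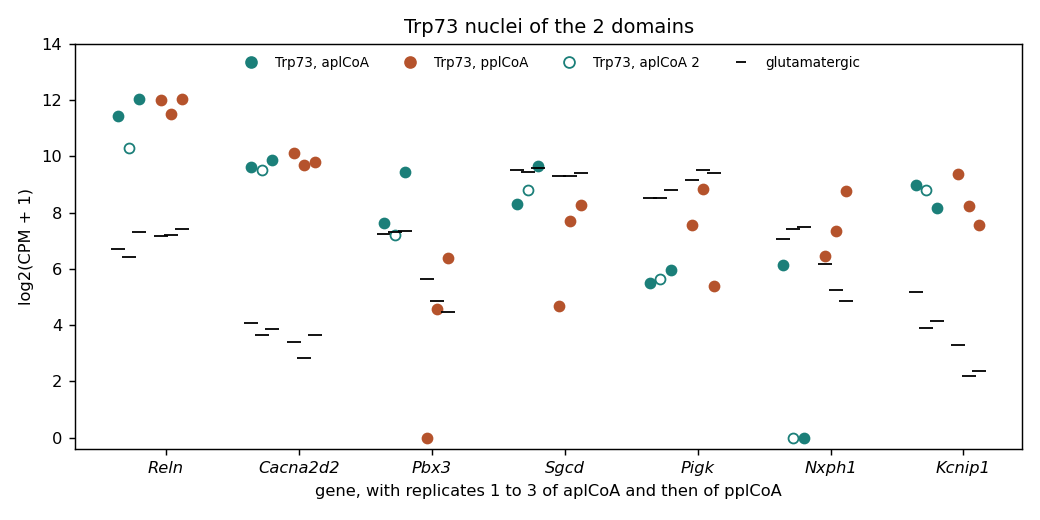
Level of 7 genes as log2(CPM + 1) (y axis) in Trp73 nuclei of each replicate, aplCoA in teal and pplCoA in orange, with glutamatergic nuclei of the same replicate as black dashes. The open circle is aplCoA replicate 2, which held 3 nuclei, and Pbx3 lies higher in aplCoA in both groups of nuclei while Reln and Cacna2d2 overlap between domains.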

How the data were processed

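For each of 7 libraries the authors deposited raw UMI counts per gene and barcode, unfiltered and without normalization. Per the labels and the study's methods they came from Cell Ranger 5.0.0 with the 10x 3′ v3.1 kit, the mm10 reference and intronic reads included. Intronic reads raise the counts of long genes, and reads of overlapping antisense pairs rest on strand assignment. The study's empty droplet and cluster filters were not repeated, and the floor on genes took their place.

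The nuclei and the 28 gene lists were chosen with earlier results of these data known. Microglial nuclei (at least 4 UMIs of Csf1r, Cx3cr1, P2ry12 and Siglech, with at least 2 genes) gave the level of free RNA. Shares at equal depth were computed by thinning to 2000 UMIs. Doublets were kept, and Scrublet marks (1% per 1000 nuclei) were removed as an alternative. Summed counts were tested with edgeR 4.0.16 in R 4.3.3 (quasi-likelihood, TMM, replicate block) on genes detected in 10% of nuclei of either group, leaving out the 8 genes that defined the groups. DESeq2 1.42.0 was an alternative. The replicate block rests on both groups coming from the same pooled tissue. Whether pools of 1 number in the 2 domains are related is not given, so these were not paired. The fit was tested on simulated data, in which 6.5% of 200 genes changed by a log2 fold change of 1 and 66.0% of 200 changed by 2 were called among 9783, and 11.0% of 200 changed by 2 and 59.5% of 200 changed by 4 among 7121 between domains.

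Genes were named by a rule: the 12 most raised and 8 most lowered called genes detected in 25% of nuclei of the higher group and moving 1 way in every replicate, the identity and chloride lists in full, and the 3 strongest called genes of each other list. Further list genes were named after their values were seen, and some genes of the lists are not reported here. Gene positions and sequences are from RefSeq GRCm38.p6. Python 3.11.15, scanpy 1.11.5, numpy 2.4.6, scipy 1.17.1 and pandas 2.3.3 were used. Spatial, imaging, tracing and behavioural data were not analysed here.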

Additional observations from a re-analysis of the deposited data

Results flagged for a closer look

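In 49 groups of 5 or 6 replicates examined, 5 held a value that stood apart from the others, where chance gives about 1 in 20. The log2 ratio of CPM in Trp73 to glutamatergic nuclei of Emx2 was 6.98 in aplCoA replicate 1 and 8.37 to 8.68 in the other 4 replicates of the fit. That of Gpr149 was 8.75 in pplCoA replicate 3 and 4.82 to 5.96 elsewhere. For Ano6 it was -2.68 in pplCoA replicate 2 and -0.37 to 0.32 elsewhere, and for Ncald it was -4.16 in pplCoA replicate 1 and -2.36 to -1.72 elsewhere. Scrublet marked 95.2% of the Trp73 nuclei of pplCoA replicate 1 and 0 to 25.0% in the other 5 replicates.

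In 4 genes the difference between Trp73 and glutamatergic nuclei differed between the domains by the interaction term of edgeR's quasi-likelihood fit. The difference of the log2 fold changes, aplCoA minus pplCoA, was -3.52 for Nxph1 (adjusted p = 1.19e-04), -2.11 for E130114P18Rik (adjusted p = 0.00875), -2.06 for Kcnip1 (adjusted p = 0.0328) and -4.01 for Prr16 (adjusted p = 0.0465). DESeq2 called none of them at an adjusted p under 0.01. The call for E130114P18Rik was lost without aplCoA replicate 1 (adjusted p = 0.214), aplCoA replicate 3 (0.994) or pplCoA replicate 2 (0.185). That for Nxph1 was lost without aplCoA replicate 3 (0.105), pplCoA replicate 2 (0.0294) or pplCoA replicate 3 (0.781). Kcnip1 was above 0.05 without aplCoA replicates 1 (0.927) or 3 (0.847), or pplCoA replicates 1 (0.391) or 2 (0.173), and Prr16 without aplCoA replicates 1 (0.703) or 3 (0.847), or pplCoA replicates 2 (0.0875) or 3 (0.973).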

How the results depend on the processing

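The share of Trp73 nuclei did not separate the domains under any alternative. The difference in percentage points ranged from -0.0751 (without aplCoA replicate 1) to 0.0627 (without aplCoA replicate 2) with a replicate left out, turned to -0.0166 and -0.00330 with at least 8 and at least 3 UMIs of the rule genes, was 0.0899 with Scrublet doublets removed (0.194 against 0.104%), and had p = 0.75 in an exact permutation with the replicate number as a block.

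Against glutamatergic nuclei, 298 to 521 genes were higher with a replicate left out, 266 with Scrublet doublets removed (which left out pplCoA replicate 1), 857 with library size scaling and 191 (283 lower) against nuclei of like depth. DESeq2 called 633 lower genes, and without the replicate block 495 were higher and 974 lower. Of the called genes, 179 of 512 higher and 264 of 1041 lower were shared with the fit at like depth. Over 84 named genes and 18 other fits, the 77 called genes kept their call in 1267 of 1372 values, lost it in 100 and reversed in 5, and the 7 uncalled genes stayed uncalled in 121 of 124 values and were called in 3. The reversed values of these 84 genes were Slc1a3 (-1.39 without Scrublet doublets, -1.28 at like depth and -2.83 without the nuclei with other markers), Bmp6 (-0.14) at like depth, and Grm8 (-0.0823) with at least 8 UMIs of the rule genes. Slc1a3 was itself among the other markers. Over the 199 called genes of the lists and the naming rule together, 3128 of 3557 values kept their call, 415 lost it and 14 reversed, 8 of them at like depth. The cause was not tested.

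Between domains within Trp73 nuclei, where leaving a replicate out leaves 1 sample in a domain, assumed to vary like the other, 0 to 3 genes were higher and 0 to 17 lower with a replicate left out, 1 and 0 by the likelihood ratio test, 0 and 0 by DESeq2 or with a minimum of 10 summed UMIs in place of the detection floor, and 6 higher without the nuclei with other markers, where Pigk stood at -0.72 (adjusted p = 0.941). Pbx3 kept its direction but not its call by DESeq2 (adjusted p = 1.00), with the minimum of 10 UMIs (0.0229), without aplCoA replicate 3 (0.170) and without pplCoA replicate 1 (0.0212). A replicate block could not be fitted there, since it left no residual degrees of freedom. The interaction of domain and group gave 0 to 5 lower genes with a replicate left out, 0 by DESeq2 (127 at an unadjusted p under 0.05), 1 with the minimum of 10 UMIs and 4 at an adjusted p under 0.05, and 380 genes had an unadjusted p under 0.05. The 127 and 380 genes at an unadjusted p under 0.05 were not set against the number that this threshold passes with no effect. The neighbour share moved between 81.9 and 88.9%. Leaving a replicate out dropped it from this mean but kept its nuclei in the search. Asking both groups for 2 UMIs of Slc17a7 and Slc17a6 left 1 replicate and was not run. Leaving out nuclei with other markers and library size scaling were chosen after seeing the data. With 113 nuclei of low depth, genes with few UMIs were measured with little precision, and aplCoA replicate 2, with 3 nuclei, entered no fit.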
